A study of Mus musculus with 44 samples.

Results

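The 10 genes described here write, copy, protect or remove DNA methylation: Dnmt1, Uhrf1, Dnmt3a, Dnmt3b, Dnmt3l, Tet1, Tet2, Tet3, Tdg and Dppa3. They were taken by name from a table of 35269 genes measured by single-embryo RNA-seq in 44 mouse two-cell embryos, and all 10 were found in it. Dppa2 and Dppa4 are paired chromatin-binding proteins of the early embryo, and the question behind the crosses was whether the stores of both that the egg supplies are needed when the embryonic genome is switched on. Control females mated with WT males gave 14 Dppa2/4+/+ embryos. Females that lost both genes in growing oocytes (conditional alleles recombined by Zp3-Cre, C57Bl/6 background, natural matings; cKO below, the Dppa2/4m- females) were mated with WT males and gave 15 Dppa2/4+/- embryos, and with heterozygous males gave 5 Dppa2/4+/- and 10 Dppa2/4-/- embryos. All 30 embryos of cKO females therefore lacked the maternal supply, and they differed in whether the sperm brought intact alleles. The 44 embryos came from 6 litters, 2 per cross. The Dppa2/4+/- and Dppa2/4-/- embryos of HET sires shared their 2 litters, but each other litter held embryos of 1 group, so that every comparison with Dppa2/4+/+ embryos sets 2 litters against 2 others.

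The embryos held 247667 to 3163026 reads, with a median of 1770010 in Dppa2/4+/+ embryos and 528166 in Dppa2/4+/- embryos of WT sires. Levels are given as log2 RPM, where RPM scales an embryo's reads to a common total. Values under 1.86, the level that stands for 0 reads in the shallowest embryo, were set to 1.86 in every embryo. Dppa2 fell by 6.57 on the log2 scale in Dppa2/4-/- against Dppa2/4+/+ embryos and Dppa4 by 5.25, and 7 of the 10 Dppa2/4-/- embryos had 0 reads of Dppa2. The genotypes of the embryos of HET sires were assigned by the submitters from these same 2 transcripts, so their levels are no independent check in that cross. The Dppa2/4+/- embryo 5 of HET sires (the only one from the second mating) had a Dppa2 level of 8.88, within the 7.67 to 9.40 of Dppa2/4+/+ embryos, while Dppa4 stayed at 5.77 or less in all 5. Of the Dppa2/4+/- embryos of WT sires, embryos 1 and 3 (8.34 and 8.43) also lay within that Dppa2 range. Their littermates 2 and 5 had Dppa4 at 7.36 and 7.34, within the 6.33 to 8.47 of Dppa2/4+/+ embryos. All 6 markers of two-cell embryos (such as Zscan4d and Zfp352) and all 6 egg-derived markers (such as Gdf9 and Zp3) were read. Of the 8 markers of cumulus and granulosa cells 7 had reads in some embryo, Kitl in 34 embryos with up to 101 reads and Cyp19a1 in 16 with up to 39, while Fshr had 0 reads; their summed level was 0 to 48.7 RPM with a median of 9.76. Of the 3 blood markers Hba-a1 was read in 7 embryos with up to 5 reads, Hbb-bs in 1 and Ptprc in 0. Of the 3 sperm markers Prm1 was read in 1 embryo and Prm2 in 2, with 1 read each, and Tnp1 in 0. The part of other cells' RNA in the results was not tested.

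As background, methylation of cytosine at CpG sites is copied to new DNA strands by DNMT1, which UHRF1 brings to half-methylated sites. DNMT3A and DNMT3B set new marks, with DNMT3L as a cofactor that has no catalytic activity of its own and works above all in germ cells. TET enzymes oxidise 5-methylcytosine, TDG excises the oxidised bases, and DPPA3 (also called STELLA or PGC7) shields the maternal genome from oxidation and limits UHRF1. In the mouse zygote and two-cell embryo the genome loses much of the methylation of the gametes, TET3 being the oxidising enzyme stored in the egg. RNA levels are all that was measured here, as shares of each embryo's reads, so that a change in the embryo's total RNA is not seen. In GRCm38 coordinates Tet1 lies at chr10:62804570-62908996, Tet2 at chr3:133463679-133545139, Tet3 at chr6:83362373-83459084, Uhrf1 at chr17:56303321-56323486, Dnmt1 at chr9:20907209-20959888, Dnmt3l at chr10:78041947-78063622 and Dppa3 at chr6:122626410-122630272. Levels were counted over the exons of these protein-coding genes.

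Per kilobase of merged exons the 10 genes covered a wide range of levels in Dppa2/4+/+ embryos. Dppa3 led by far, with a median of 1166 RPKM (RPM divided by the length in kilobases), above Tet1 in 44 of 44 embryos. Tet1 followed with a median of 10.3, Uhrf1 with 8.02, Tet3 with 5.65 and Dnmt1 with 4.33. These 4 did not separate: Tet1 stood above Uhrf1 in 8 of 14 Dppa2/4+/+ embryos, Uhrf1 above Tet3 in 9 of 14 and Tet3 above Dnmt1 in 9 of 14. The de novo genes had lower medians, Dnmt3l at 3.59, Dnmt3a at 2.48 and Dnmt3b at 1.99 in the same unit, again with neighbours that overlapped. Dnmt1 stood above Dnmt3l in 10 of 14 Dppa2/4+/+ embryos and in 22 of 44 over all groups. The merged exons of Dnmt3a span 16642 bases and its longest coding transcript 9685, so levels per kilobase depend on the length used. Tet2 was at 0.0961 RPKM. Its reads numbered 247 over all 44 embryos, and 27 embryos lay at the common floor.

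Tdg was the exception, with reads in only 5 of 44 embryos and never more than 4. A count of 0 allows a level of up to 0.948 RPM in the deepest embryo and 12.1 RPM in the shallowest (3 reads, counting error only). Tdg did not pass the filter on low values, so 9 of the 10 genes were tested. Stretches of at least 100 bases with 95% identity or more to other annotated transcripts, among them Tdg-ps and Gm9855, covered 95.2% of its longest transcript, and the authors kept only reads with a mapping quality of at least 20. Its low count is therefore uncertain as a measure of Tdg RNA. The same search covered 54.1% of the Dppa3 transcript (Dppa3-ps and Gm15620) and 44.3% of that of Uhrf1 (Gm5648), and found no copy of the other 7 genes. Reads were counted without regard to strand, and 133 bases of Dnmt3a exon are shared with the antisense gene Dnmt3aos, 67 bases of Dnmt3l exon with Aire, 43 bases of Tet2 exon with Gm42567 and 367 bases of Tdg exon with Glt8d2, which had 0 reads.

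**Figure D1:**
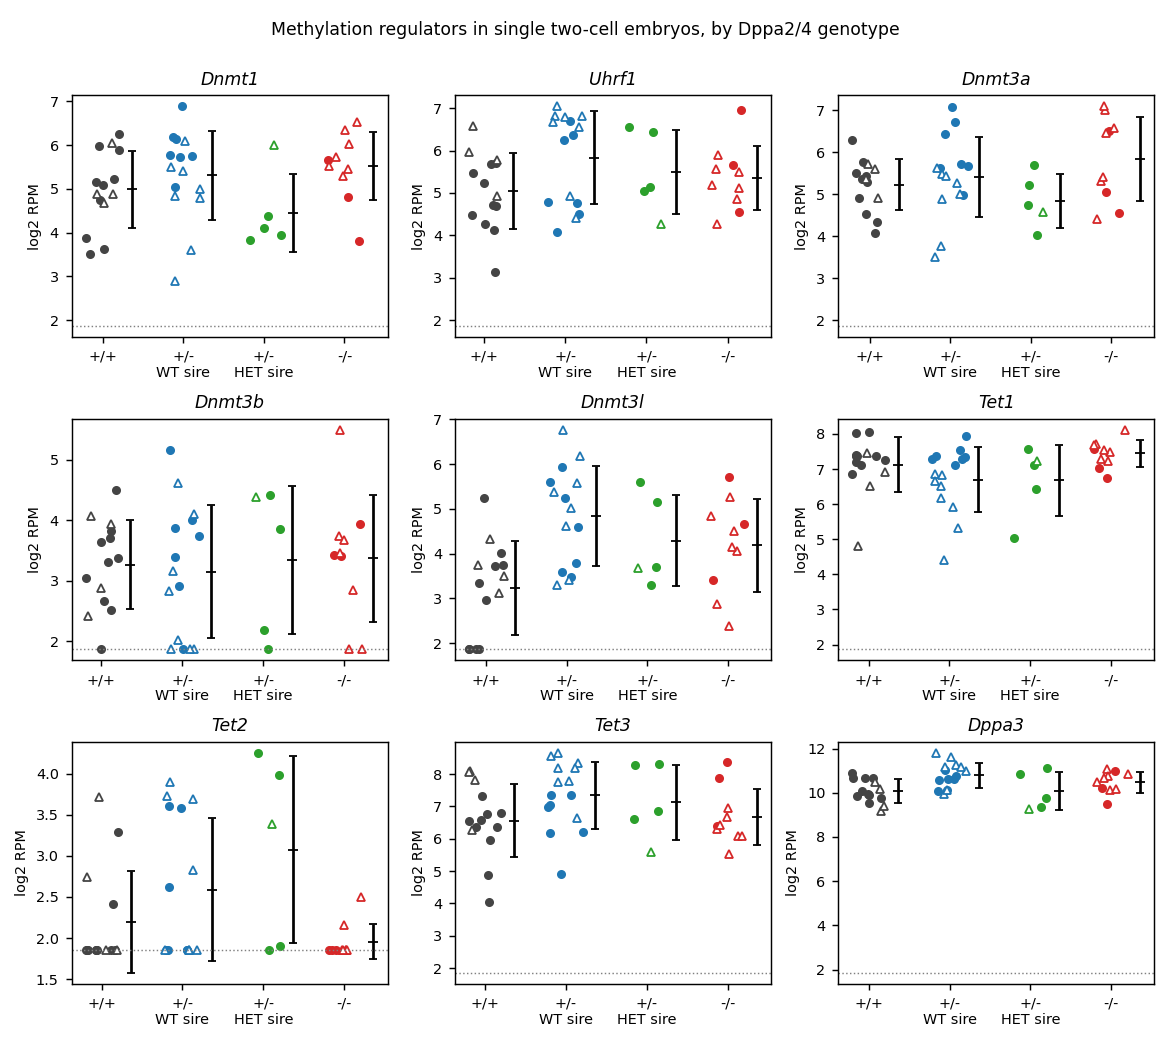
Level of the 9 tested genes (vertical axis, log2 RPM) in each of the 44 embryos by Dppa2/4 genotype; filled circles are first and open triangles second matings, the bar gives mean ± SD, and the dotted line the common floor of 1.86. Dnmt3l sits higher in the 15 Dppa2/4+/- embryos of WT sires than the mean of the 14 Dppa2/4+/+ embryos, and the groups overlap for every gene.

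Uhrf1, Tet3 and Tet1 carry most of the results below, so the sequence upstream of their RefSeq starts is shown. Uhrf1 and Tet3 varied together from embryo to embryo, and Tet1 did not follow them. Each line gives 250 bases ending at an annotated start (RefSeq, GRCm38.p6), 5′ to 3′, with each CG, the dinucleotide that carries methylation, in capitals; 9 of the 10 genes had such a window.
Uhrf1 upstream start, chr17:56303087-56303336, plus strand: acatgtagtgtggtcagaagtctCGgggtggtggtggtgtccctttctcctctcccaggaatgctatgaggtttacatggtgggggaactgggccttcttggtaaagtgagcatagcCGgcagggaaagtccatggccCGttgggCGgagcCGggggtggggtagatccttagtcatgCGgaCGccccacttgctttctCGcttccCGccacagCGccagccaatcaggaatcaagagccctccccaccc
Uhrf1 downstream start, chr17:56304063-56304312, plus strand: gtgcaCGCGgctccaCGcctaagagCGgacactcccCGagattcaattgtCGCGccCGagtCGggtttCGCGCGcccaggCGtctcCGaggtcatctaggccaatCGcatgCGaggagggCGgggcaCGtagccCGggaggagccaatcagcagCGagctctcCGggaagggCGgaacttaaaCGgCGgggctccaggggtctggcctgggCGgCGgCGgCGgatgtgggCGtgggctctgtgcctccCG
Tet3, chr6:83441679-83441928, minus strand: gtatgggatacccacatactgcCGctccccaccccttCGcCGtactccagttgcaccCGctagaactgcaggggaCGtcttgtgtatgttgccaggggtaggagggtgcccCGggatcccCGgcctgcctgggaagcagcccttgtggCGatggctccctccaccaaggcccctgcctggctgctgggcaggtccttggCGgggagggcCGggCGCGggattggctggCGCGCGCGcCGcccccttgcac
Tet1, chr10:62887325-62887574, minus strand: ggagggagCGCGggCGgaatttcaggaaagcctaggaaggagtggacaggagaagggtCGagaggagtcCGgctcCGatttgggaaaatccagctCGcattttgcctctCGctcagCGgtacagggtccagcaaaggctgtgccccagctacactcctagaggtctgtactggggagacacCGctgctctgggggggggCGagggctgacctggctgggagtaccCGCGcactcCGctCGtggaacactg
The window of the downstream Uhrf1 start held 30 CG, a number that 5.94% of the 32851 windows of this length reach or exceed, and that of the upstream start 10 (reached or exceeded by 37.8%). Tet3 had 17 (23.5%) and Tet1 15 (27.3%), against a median of 6 over all windows. The Tet3 and Tet1 windows lie inside the gene spans given above, which on the minus strand begin at 83459084 and 62908996. Which start these embryos used was not tested. The assay reads RNA and did not probe these windows.

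In the homozygous embryos, 0 of the 9 tested genes passed against Dppa2/4+/+ embryos by limma at an adjusted p under 0.05 (Benjamini-Hochberg over 13338 genes), 1 of 9 had an unadjusted p under 0.05 (16.5% of all genes), and limma voom on recovered reads also called 0. Over all genes 6 were called, 0.045%. Of the maintenance genes, Dnmt1 was 5.52 ± 0.78 (SD, n = 10) in Dppa2/4-/- and 4.99 ± 0.88 (SD, n = 14) in Dppa2/4+/+ embryos, and Uhrf1 5.36 ± 0.76 and 5.05 ± 0.90. The 95% intervals of these differences ran from -0.24 to 1.29 and from -0.47 to 1.08 on the log2 scale, and the groups overlapped for both. For Tet3 the interval was -0.69 to 0.91 around a difference of 0.11, and for Tet1 -0.32 to 0.96 around 0.32. The median over all genes in this comparison was 0.17, above the difference of Tet3. With embryos re-centred on their median the differences were 0.22 for Dnmt1, -0.0081 for Uhrf1, -0.20 for Tet3 and 0.0086 for Tet1.

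Dnmt3l had the largest difference of the 9 in this comparison, 0.96 (95% interval 0.043 to 1.88, adjusted p = 0.28), and did not pass. It was 0.52 (adjusted p = 0.72) without the first litter of controls and 0.56 (0.74) with log2 total reads in the model. Its level was 2.39 at the lowest, 4.33 at the median and 5.71 at the highest in Dppa2/4-/- embryos, against 1.86, 3.42 and 5.25 in Dppa2/4+/+ embryos. Of the Dppa2/4-/- embryos 8 of 10 lay above the Dppa2/4+/+ mean, and 2 above its highest embryo.

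The littermate comparison sets embryos with and without an intact sperm allele side by side in the same 2 litters. Here too 0 of the 9 genes passed in limma or in limma voom, with 1 of 9 at an unadjusted p under 0.05 (4.81% of all genes). The 2 genes called among 13338 (0.015%) were Dppa2 and Dppa4. Tet2, an oxidase that acts mainly in later cell types, was the one with the low unadjusted p (difference -1.22, 95% interval -2.06 to -0.38, adjusted p = 0.85). Its level was 1.91, 1.86, 3.98, 4.25 and 3.38 in the 5 Dppa2/4+/- embryos, and at the floor in 8 of the 10 Dppa2/4-/- embryos, whose highest value was 2.50. These are few reads, 58 in all in the 5 embryos and 24 in the 10. For Tet3 the difference was 0.26 (95% interval -0.63 to 1.15), for Uhrf1 0.27 (-0.73 to 1.27) and for Dnmt1 0.41 (-0.38 to 1.19). Leaving out single Dppa2/4+/- embryos moved the Tet3 difference from 0.035 (without embryo 5) to 0.45 (without embryo 3).

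**Figure D2:**
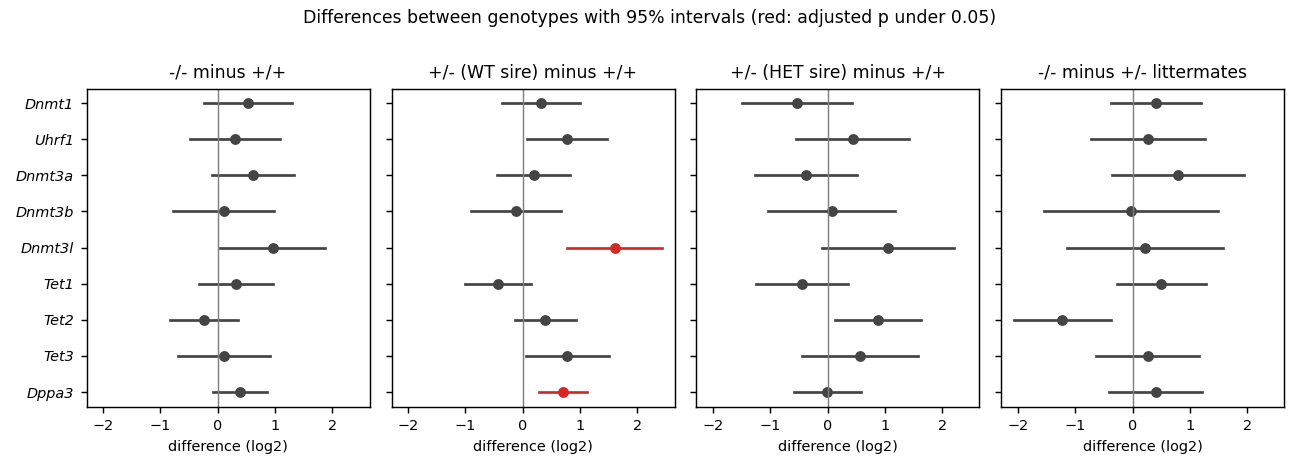
Differences in level (horizontal axis, log2) of the 9 tested genes for 4 comparisons of genotypes; points are estimates, lines 95% intervals, and red marks an adjusted p under 0.05. Dnmt3l and Dppa3 pass in Dppa2/4+/- embryos of WT sires against Dppa2/4+/+, and 0 of 9 pass in the other 3 panels.

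Among the embryos that WT males sired by cKO females, 2 of the 9 genes were higher than in Dppa2/4+/+ embryos and 0 were lower, where 6.51% of all genes were called (4 of 9 and 21.9% at an unadjusted p under 0.05), 3.67% as higher and 2.83% as lower (3.33% and 4.92% with embryos re-centred). Dnmt3l rose 3.04-fold (log2 difference 1.60, 95% interval 0.78 to 2.42, adjusted p = 0.012). Its level ranged from 3.30 to 6.77 with a median of 5.03 in these 15 embryos, all 15 above the Dppa2/4+/+ mean of 3.23 ± 1.05 (SD, n = 14), and 6 lay above the highest Dppa2/4+/+ embryo. Of the 14 Dppa2/4+/+ values of Dnmt3l 4 lay at the floor, all in the first control litter, so its fold depends in part on the floor. Dppa3 rose 1.63-fold (0.71, 0.29 to 1.13, adjusted p = 0.030), from 10.09 ± 0.53 (SD, n = 14) to 10.79 ± 0.57 (SD, n = 15). The groups overlapped, Dppa3 spanning 9.18 to 10.89 in Dppa2/4+/+ and 9.93 to 11.80 in Dppa2/4+/- embryos.

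Both calls moved with depth and with litter. Dnmt3l and Dppa3 levels fell as total reads rose, also among littermates (Pearson's r within litters over 44 embryos -0.47 and -0.49), and these embryos were the shallowest. The summed egg-derived markers were also higher in these embryos, with a median of 7280 RPM against 3047 RPM in Dppa2/4+/+ embryos. The two-cell markers had 796 RPM and 430 RPM. Within litters r with the egg-derived sum was -0.041 for Dnmt3l and 0.028 for Dppa3, and with the two-cell sum 0.50 and 0.51. The egg-derived median was 7173 RPM in Dppa2/4+/- embryos of HET sires and 2999 RPM in Dppa2/4-/- embryos. Mean Dppa3 was 10.08 and 10.48 there. The part of either set of markers was not tested. With log2 total reads in the model the differences were 0.90 (adjusted p = 0.40) and 0.29 (0.61), and with litter as a random effect 1.53 (0.49) and 0.74 (0.53). Leaving out the second litter of the cKO x WT cross gave 1.38 (0.14) for Dnmt3l, and without the first litter of controls 1.16 (0.42). Dppa3 also lost its call when embryos were re-centred (0.53, adjusted p = 0.10), when all genes were tested without the filter (0.096), by limma voom (0.52, 0.076), and without the second cKO x WT litter or either control litter. Over all genes the 868 calls of this comparison fell to 5 without the second cKO x WT litter and to 136 without the first control litter. The remaining 7 genes did not pass: Tet3 had a difference of 0.78 (adjusted p = 0.18), Uhrf1 0.78 (0.17) and Tet1 -0.42 (0.40). These 3 passed once the first cKO x WT litter was left out, with 1.45 (adjusted p = 0.0076) for Tet3, 1.20 (0.026) for Uhrf1 and -1.04 (0.018) for Tet1, so that 5 of the 9 genes were called with the second litter alone, where 19.2% of all genes were. Tet3 also passed without the second control litter (1.18, 0.043).

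The Dppa2/4+/- embryos of HET sires number only 5. Limma called 0 of the 9 genes against Dppa2/4+/+ embryos, 1 had an unadjusted p under 0.05 (9.01% of all genes), limma voom called 0, and 0.0375% of all genes were called. Dnmt3l had levels of 3.71, 3.31, 5.61, 5.14 and 3.67, a difference of 1.06 from Dppa2/4+/+ (95% interval -0.092 to 2.21, adjusted p = 0.59). Dppa3 had 9.78, 9.35, 11.14, 10.86 and 9.29, with a difference of -0.0048 (-0.59 to 0.58). Between Dppa2/4-/- embryos and Dppa2/4+/- embryos of WT sires 0 of 9 passed, beside 0.0375% of all genes, with 2 of 9 at an unadjusted p under 0.05 (13.1% of all genes) and 0 called by limma voom. These were Tet1 (0.74, adjusted p = 0.33) and Tet2 (-0.64, 0.35). Without the first cKO x WT litter Tet1 (1.36, 0.0053) and Tet3 (-1.34, 0.025) were called, as were 17.6% of all genes. These comparisons share their Dppa2/4+/+ or Dppa2/4+/- embryos, so their values are not independent of each other.

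Tet3 and Tet1 had the largest shares of their variation between litters among the 9 genes. Of the variation over the 44 embryos, 49.8% of that in Tet3 and 46% of that in Tet1 lay between the 6 litters, while the median gene had 21.8%; 7.72% and 10.3% of genes had as much. Between the 4 groups lay 10.8% and 13.8%, against a median of 9.74%. Dnmt3l had 33.6% between litters and 29.3% between groups, and Dppa3 29.1% and 24.3%; 3.46% and 7.44% of genes had as much between groups. Dnmt1 had 37.6% and 11.9%, and Uhrf1 30.6% and 11%. Dnmt3b had 6.55% between litters and 0.833% between groups. Tet2 had 9.39% and 20.3%. Since 4 of the 6 litters hold embryos of 1 group only, the shares overlap, and that between litters was the larger in 92.6% of all genes.

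In the cKO x WT cross the second litter had more Tet3 and less Tet1 than the first. Tet3 was 6.57 ± 0.87 (SD, n = 7) in the first litter and 8.01 ± 0.64 (SD, n = 8) in the second, a difference of 1.44 (95% interval 0.64 to 2.23, adjusted p = 0.0071). Tet1 went from 7.41 ± 0.26 to 6.08 ± 0.86, a difference of -1.32 (-1.99 to -0.66, adjusted p = 0.0030), and every embryo of the first litter, at 7.11 or more, stood above every embryo of the second, at 6.85 or less. Dnmt1 (-1.16, adjusted p = 0.041) and Dnmt3a (-1.16, 0.036) were lower in the second litter too, so 4 of 9 genes passed, 1 higher and 3 lower, where 21.9% of all genes did, 6.46% as higher and 15.4% as lower. At an unadjusted p under 0.05 stood 5 of 9, beside 34.2% of all genes. Tet1 and Tet3 passed under all 5 alternatives run for litters, Dnmt1 and Dnmt3a each under 2 of 5. With embryos re-centred the split turned to 3 higher and 1 lower of the 9 genes, and over all genes to 10.3% higher and 10.2% lower: Dnmt1 (-0.81, adjusted p = 0.13) and Dnmt3a (-0.81, 0.084) no longer passed, and Uhrf1 (1.25, 0.019) and Dppa3 (0.82, 0.018) did. Dppa2 also differed between these litters, by -1.56 (adjusted p = 0.00028), and Dppa4 by -1.79.

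In the cKO x HET cross the order was the other way round, the first litter having more Tet3. Tet3 was 7.53 ± 0.87 (SD, n = 7) in the first litter and 6.20 ± 0.49 (SD, n = 8) in the second (difference allowing for genotype -1.44, 95% interval -2.28 to -0.60, adjusted p = 0.048). Dnmt1 was higher in the second litter (1.31, 0.58 to 2.05, adjusted p = 0.040). Tet1 stood at 6.78 ± 0.87 and 7.54 ± 0.30, a difference of 0.53 that did not pass (adjusted p = 0.37). Here 2 of 9 genes were called, 1 higher and 1 lower in the second litter, against 5.15% of all genes (2.17% as higher, 2.98% as lower), and 2 had an unadjusted p under 0.05 (22.7% of all genes). With the Dppa2/4-/- embryos alone neither call held at differences of -1.25 for Tet3 (adjusted p = 0.18) and 1.08 for Dnmt1 (0.23), and limma voom called 0, with -1.19 (0.057) and 1.20 (0.077). Both were also lost by limma with no filter (adjusted p = 0.19 and 0.11), and Dnmt1 with deposited values (0.062). Tet3 thus lost its call in 3 of 6 alternatives and Dnmt1 in 4 of 6. In controls 0 of 9 passed, beside 1.75% of all genes and with 3 of 9 at an unadjusted p under 0.05 (14.7% of all genes). Tet3 was 6.16 ± 0.98 (SD, n = 10) and 7.56 ± 0.86 (SD, n = 4), a difference of 1.40 (adjusted p = 0.098), and Tet1 7.40 ± 0.37 and 6.42 ± 1.14, a difference of -0.98 (0.18). The control Tet3 difference was called by limma voom (1.63, adjusted p = 0.0091) and after re-centring (1.53, 0.034).

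**Figure D3:**
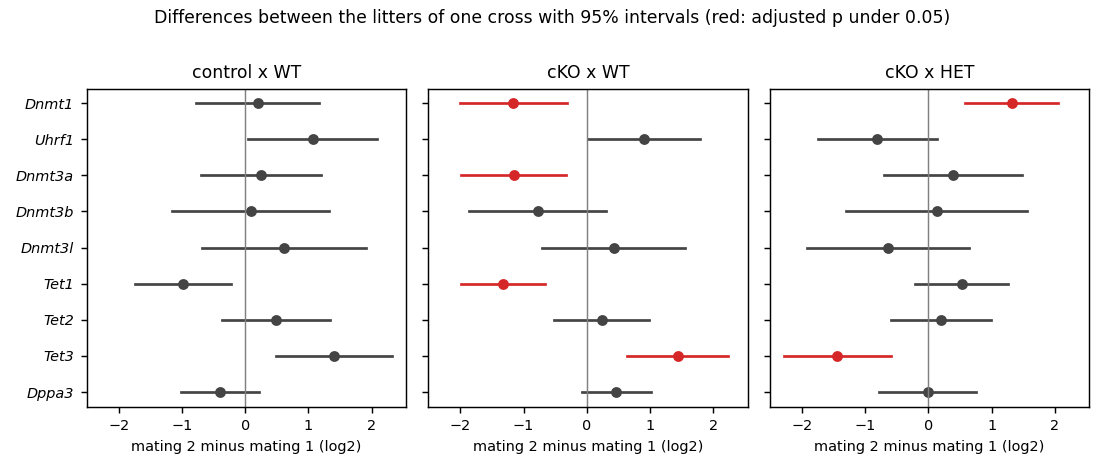
Difference in level between the 2 litters of each cross (horizontal axis, second minus first mating, log2) for the 9 tested genes; points are estimates, lines 95% intervals, and red marks an adjusted p under 0.05. Tet3 and Tet1 lie on opposite sides of 0 in each of the 3 panels, with Tet3 at 1.40, 1.44 and -1.44.

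Set against each other within an embryo, Tet3 exceeded Tet1 in 8 of 8 embryos of the second cKO x WT litter and in 0 of 7 of the first. It did so in 5 of 7 embryos of the first cKO x HET litter and 0 of 8 of the second, and in 1 of 10 and 3 of 4 embryos of the control litters. The egg-derived markers moved with this split: their summed level was 7280 to 12507 RPM in the second cKO x WT litter and 6756 to 7960 in the first cKO x HET litter, against 1466 to 5468 and 1259 to 4265 in the other litter of each cross. In control litters it was 1501 to 4109 and 1894 to 8292. Omt2b made up most of this sum, with a median of 3248 RPM over the 44 embryos beside 4103 RPM for the sum. The two-cell markers had medians of 956 RPM in the second and 561 RPM in the first cKO x WT litter, 725 RPM in the first and 462 RPM in the second cKO x HET litter, and 430 RPM and 401 RPM in the control litters. The part of these transcripts in the Tet difference was not tested. The first and second matings of different crosses share only a number.

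Embryo by embryo, Uhrf1 and Tet3 were the closest pair among the 36 pairs of the 9 genes. Pearson's r over 44 embryos was 0.79 and Spearman's rho 0.76, and within litters r was 0.69, each with an adjusted permutation p of 0.00036, the smallest that the permutations could give after adjustment. In the 5 litters of at least 6 embryos r ranged from 0.47 to 0.86, and it was 0.75 over all embryos without the 2 farthest from the median. Re-centring the embryos left 0.59 within litters (permutation p = 0.00019) and taking out total reads left 0.69. Within litters r with the summed two-cell markers was 0.45 for Uhrf1 and 0.55 for Tet3, and it was of like size for Dppa3 (0.51), Dnmt3l (0.50) and Dnmt3a (0.42). Sp110 made up most of that sum, with a median of 429 RPM over the 44 embryos beside 566 RPM for the sum. With the summed egg-derived markers, mostly Omt2b, r within litters was -0.14 for Uhrf1 and 0.095 for Tet3. Over all 44 embryos it was 0.36 and 0.61, beside 0.56 and 0.63 with the two-cell markers.

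The inverse relation of Tet1 and Tet3 did not hold within litters. Their r over all embryos was -0.50 and within litters -0.072 (adjusted permutation p = 0.73). Within litters 4 of the 36 pairs passed at an adjusted p under 0.05. Apart from Uhrf1 and Tet3 these were Dnmt3a and Dppa3 (0.56, adjusted permutation p = 0.0041), Dnmt3l and Dppa3 (0.46, 0.034) and Uhrf1 and Dnmt3a (0.44, 0.036). After re-centring none of these 3 had a permutation p under 0.05 (r 0.24, 0.17 and 0.17). The permutation tests treat embryos of a litter as separate, although they share parents. Pairs of other genes were not tested, so the share of all gene pairs that would pass is not known. Over the 44 embryos r was higher for Tet3 with Tiam1 (0.86) and for Uhrf1 with Mthfd2 (0.83) than for Uhrf1 with Tet3 (0.79).

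**Figure D4:**
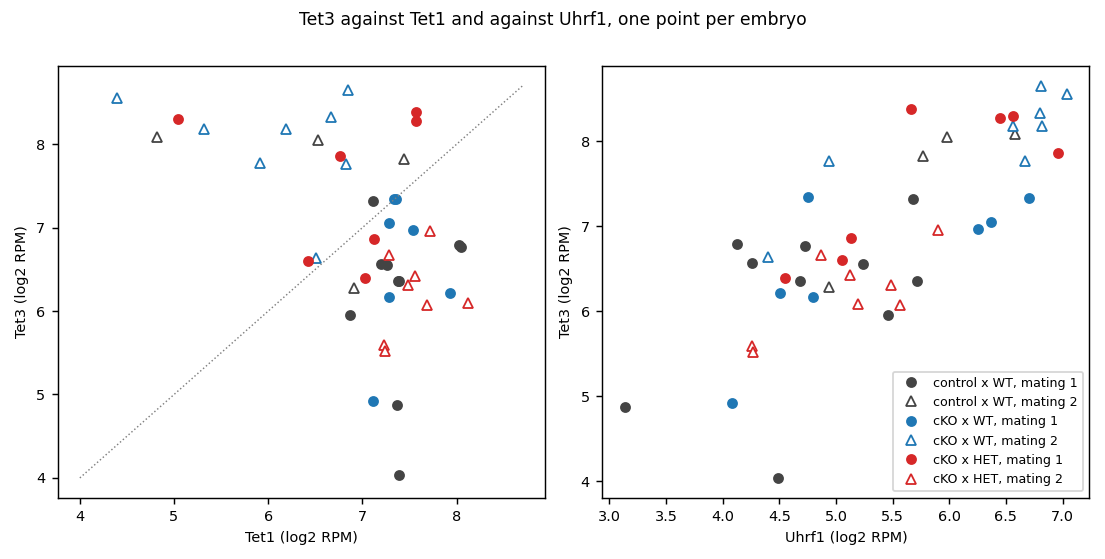
Level of Tet3 (vertical axes, log2 RPM) against Tet1 (left) and Uhrf1 (right), one point per embryo, coloured by cross, with filled circles for first and open triangles for second matings; the dotted line marks equal levels. All 8 embryos of the second cKO x WT litter lie above the line and all 8 of the second cKO x HET litter below it, while Uhrf1 and Tet3 rise together (r within litters 0.69).

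Genes with the most similar pattern over the 44 embryos were listed by Pearson's r among 6918 genes (6919 for Tet2, which is not one of them), as a description. For Tet3 they were Tiam1 (0.86), Ccndbp1 (0.86) and Tcl1 (0.84), and for Uhrf1 Mthfd2 (0.83), Gdf9 (0.81) and Gm1965 (0.81). Dppa3 was most like Polr2j (0.87), Snrpg (0.83) and Lrwd1 (0.83). Tet1 was most like Npl (0.83), Pip4k2c (0.83) and Clpx (0.82), and Dnmt3a like Aprt (0.84), Rcl1 (0.83) and Crb3 (0.83). For Dnmt1 they were Rreb1 (0.76), Rmnd5b (0.76) and Gde1 (0.74), and for Dnmt3l Foxk1 (0.79), Evl (0.77) and Cdk2ap2 (0.76). The values were lower for Dnmt3b, with Pigq (0.58), Sbk1 (0.57) and Nomo1 (0.56), and for Tet2, with Ap3b1 (0.56), Rnf19b (0.46) and Tm7sf3 (0.45). Embryos of a litter and depth are shared by all these values.

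Of 53 further genes of the pathway, in 6 lists by role, 46 could be tested. In Dppa2/4+/- embryos of WT sires 2 of the 46 were lower and 0 higher than in Dppa2/4+/+ embryos, where 2.83% of all genes were lower and 3.67% higher. Both were from the list on recruitment of methylation and imprint protection. Setd2, which places the histone mark H3K36me3 read by de novo methyltransferases, fell by 0.88 on the log2 scale (95% interval -1.25 to -0.52, adjusted p = 0.0021). Ctcf, the insulator protein that protects unmethylated imprinted regions, fell by 0.57 (-0.88 to -0.26, adjusted p = 0.017). Neither call held with litter as a random effect, with differences of -0.83 for Setd2 (adjusted p = 0.32) and -0.58 for Ctcf (0.47), or with total reads in the model, with -0.60 for both (0.18 and 0.15). Both were also lost without the second cKO x WT litter, at -0.48 for Setd2 (adjusted p = 0.185) and -0.44 for Ctcf (0.17), and without the first control litter, at -0.60 (0.36) and -0.70 (0.18). The median of that list was 0.35, above 0, while its 2 called genes were lower. In the comparisons of Dppa2/4-/- embryos with Dppa2/4+/+ embryos and with littermates, and of Dppa2/4+/- embryos of HET sires with Dppa2/4+/+, 0 of the 46 passed, beside 0.045%, 0.015% and 0.0375% of all genes. Between the litters of the cKO x WT cross 9 of the 46 passed, 2 higher and 7 lower in the second, where 21.9% of all genes passed. Among them were Mat2a, which makes the methyl donor (-0.80, adjusted p = 0.017), and Kdm1b, a histone demethylase needed for methylation in oocytes (0.98, 0.0050). With embryos re-centred 5 of these 9 no longer passed, Mat2a among them (-0.45, adjusted p = 0.22), and by limma voom 5 did not. Between the control litters 2 of the 46 passed, beside 1.75% of all genes: Mbd2, a reader of methylated DNA, was higher in the second (1.32, adjusted p = 0.025) and Ogt, a glycosyltransferase that binds TET proteins, lower (-1.71, 0.037). Neither passed when all genes were tested without the filter (adjusted p = 0.056 and 0.11), and Mbd2 did not by limma voom (1.18, 0.48) or without the common floor (1.59, 0.29). Between the cKO x HET litters 0 of the 46 passed, beside 5.15% of all genes.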

How the data were processed

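RNA from 44 single two-cell embryos was sequenced after Smart-seq2 amplification. Per the submitters' processing notes and methods, reads were trimmed with Trim Galore 0.6.5 (cutadapt 2.3) and aligned to GRCm38 with HISAT2 2.1.0. The authors kept reads with a mapping quality of at least 20 and counted them per gene in SeqMonk, over exons and on either strand, and the deposited values are log2 RPM for 35269 probes. An unread probe is stored as 0.9 read, so its value depends on depth; 99.99923% of the values above that came out as whole reads within 0.05 read. Values below a common floor of 1.86 log2 RPM (3.63 RPM), the highest value that stands for 0 reads in any embryo, were set to that floor, and genes above it in at least 5 embryos were tested (13338).

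Differences were fitted with limma 3.58.1 (R 4.3.3, trend) and adjusted by Benjamini-Hochberg, with a threshold of 0.05 and 95% intervals. Genotypes were compared in 1 model of 4 groups, litters in a model with 1 mean per group and litter, and littermates with a litter term. In the cKO x HET cross Dppa2/4+/- and Dppa2/4-/- embryos share litters per the labels, and the litter deviations of the 2 genotypes correlated at 0.58 over 6919 genes. A common floor makes fold changes of low genes too small. Correlations over embryos were tested with permutations (two-sided) and adjusted over 36 pairs. Exon lengths and overlaps came from GENCODE M21, transcripts were compared with blastn 2.17.0, and the fits were tested on simulated data. The simulated embryos had no differences between litters, so that test cannot show the rate of false calls in litters like these. No column was left without a sample, and no 2 embryos held identical values. The embryos are separate individuals, but p-values treat littermates as independent.

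The genes described were all 10 regulators, Dppa2 and Dppa4, of each pathway list at most 3 called genes per genotype comparison by size, and the 3 most similar genes to each regulator. Mat2a, Kdm1b, Mbd2 and Ogt, and the pairs of genes followed in alternatives, were chosen after their values were seen. The members and lists were chosen with earlier results of these data known. Alternatives were the deposited values without the floor, log2(RPM + 1), no filter, re-centred embryos, litter as a random effect, the mating number as a block, total reads as a covariate, limma voom on recovered reads, and leaving out litters or single Dppa2/4+/- embryos of HET sires.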

Additional observations from a re-analysis of the deposited data

Results flagged for a closer look

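In groups of 4 to 10 embryos, 18 sets of values of the 9 tested genes were searched for an embryo that stands apart (Dixon's 95% critical value), and 2 were found; chance alone gives about 1 in 20. Dnmt1 in the 5 Dppa2/4+/- embryos of HET sires was 6.01 in embryo 5 (111 reads), the only one of its group from the second mating, against 3.84 to 4.38 in the other 4. The Dppa2/4-/- embryos of that second litter had 5.29 to 6.53. Tet2 in the 10 Dppa2/4-/- embryos was 2.50 in embryo 9, from 7 reads, against 1.86 to 2.15 in the others, most of which lay at the floor.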

How the results depend on the processing

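The number of genes called depended strongly on the setting. For Dppa2/4-/- against Dppa2/4+/+ it was 6, and 10 with deposited values, 3 with no filter, 2 with random litter effects, 12 with the mating block and 2 with total reads as a covariate, and leaving out litters or embryos gave 4 to 132. For Dppa2/4+/- (WT sires) against Dppa2/4+/+ it was 868, and 1792 with deposited values, 390 with no filter, 0 with random litter effects and 0 with total reads as a covariate, and leaving out litters or embryos gave 5 to 2563. For Dppa2/4+/- (HET sires) against Dppa2/4+/+ it was 5, and 2 with deposited values, 1 with log2(RPM + 1), 0 with no filter, 11 with re-centring, 0 with random litter effects and 8 with limma voom, and leaving out litters or embryos gave 1 to 57. For Dppa2/4-/- against Dppa2/4+/- (WT sires) it was 5, and 2 with deposited values, 3 with no filter, 2 with re-centring, 2 with random litter effects and 3 with limma voom, and leaving out litters or embryos gave 2 to 2354. For Dppa2/4-/- against Dppa2/4+/- littermates it was 2, and leaving out litters or embryos gave 1 to 134. For control litters it was 234, and 368 with re-centring and 674 with limma voom. For cKO x WT litters it was 2920, and 1924 with no filter. For cKO x HET litters it was 687, and 1073 with deposited values, 256 with no filter, 1147 with limma voom and 133 with Dppa2/4-/- embryos alone. Of the counts of 0, Dppa2/4+/- (WT sires) against Dppa2/4+/+ with random litter effects had 1010 genes at an unadjusted p under 0.05, Dppa2/4+/- (WT sires) against Dppa2/4+/+ with total reads as a covariate had 1706 genes at an unadjusted p under 0.05, Dppa2/4+/- (HET sires) against Dppa2/4+/+ with no filter had 1600 genes at an unadjusted p under 0.05 and Dppa2/4+/- (HET sires) against Dppa2/4+/+ with random litter effects had 280 genes at an unadjusted p under 0.05. The 9 genes gave 0 calls for Dppa2/4-/- against Dppa2/4+/+, for the littermates and for Dppa2/4+/- (HET sires) against Dppa2/4+/+ under every alternative run. Signs turned in 70 alternatives of 31 differences of single genes, 0 of them past the threshold in either fit, and the cause was not tested. With re-centring these were Dppa2/4-/- against Dppa2/4+/+, Uhrf1 -0.0081, Dnmt3b -0.061 and Tet3 -0.20, and for Dppa2/4+/- (HET sires) against Dppa2/4+/+, Dppa3 0.029, and for Dppa2/4-/- against Dppa2/4+/- littermates, Uhrf1 -0.038, Dnmt3l -0.090 and Tet3 -0.046. With log2(RPM + 1) these were Dppa2/4-/- against Dppa2/4+/+, Dnmt3b -0.016. With total reads as a covariate these were Dppa2/4-/- against Dppa2/4+/+, Dnmt3b -0.049, and for Dppa2/4+/- (WT sires) against Dppa2/4+/+, Dnmt3a -0.41, and for Dppa2/4-/- against Dppa2/4+/- littermates, Dnmt3b 0.049. With deposited values these were Dppa2/4-/- against Dppa2/4+/+, Tet2 0.030, and for cKO x HET litters, Dnmt3b -0.0051. With limma voom these were Dppa2/4-/- against Dppa2/4+/+, Tet2 0.17, and for cKO x WT litters, Tet2 -0.18, and for cKO x HET litters, Dppa3 0.098. With the mating block these were Dppa2/4-/- against Dppa2/4+/+, Tet3 -0.12, and for Dppa2/4+/- (HET sires) against Dppa2/4+/+, Dppa3 0.00042. With random litter effects these were Dppa2/4+/- (HET sires) against Dppa2/4+/+, Dppa3 0.037. With no litter block these were Dppa2/4-/- against Dppa2/4+/- littermates, Uhrf1 -0.13, Dnmt3b 0.031, Dnmt3l -0.10 and Tet3 -0.46. With Dppa2/4-/- embryos alone these were cKO x HET litters, Dnmt3b -0.32 and Dppa3 0.36. Leaving out litters or embryos gave, for Dppa2/4-/- against Dppa2/4+/+, Dnmt1 -0.23 to 0.85, Uhrf1 -0.46 to 0.67, Tet1 -0.0077 to 1.02 and Tet3 -0.89 to 0.99. Leaving out litters or embryos gave, for Dppa2/4+/- (WT sires) against Dppa2/4+/+, Dnmt1 -0.22 to 0.94, Dnmt3a -0.34 to 0.81, Dnmt3b -0.48 to 0.30, Tet1 -1.04 to 0.28 and Tet3 -0.22 to 1.45. Leaving out litters or embryos gave, for Dppa2/4+/- (HET sires) against Dppa2/4+/+, Dnmt1 -0.92 to 1.02, Uhrf1 -0.80 to 0.74, Dnmt3b -0.20 to 1.12, Tet1 -0.73 to 0.25, Tet3 -0.97 to 0.97 and Dppa3 -0.80 to 0.28. Leaving out litters or embryos gave, for Dppa2/4-/- against Dppa2/4+/- (WT sires), Dnmt1 -0.55 to 0.75, Uhrf1 -0.90 to 0.0056, Dnmt3a -0.20 to 0.96, Dnmt3b -0.19 to 0.58 and Tet3 -1.34 to 0.21. Leaving out litters or embryos gave, for Dppa2/4-/- against Dppa2/4+/- littermates, Dnmt1 -0.17 to 0.70, Uhrf1 -0.075 to 0.94, Dnmt3b -1.10 to 0.51, Dnmt3l -0.016 to 0.47 and Dppa3 -0.055 to 1.30. The counts for Dppa2/4+/- (HET sires) rose to 57 without embryo 5. Leaving out the first cKO x HET litter leaves 1 Dppa2/4+/- embryo of HET sires, embryo 5, which is assumed to vary like the other embryos. That embryo alone sets the 134 for littermates, the limits 1.02 (Dnmt1), -0.80 (Uhrf1), 1.12 (Dnmt3b), -0.97 (Tet3) and -0.80 (Dppa3) against Dppa2/4+/+, and -0.17 (Dnmt1), 0.94 (Uhrf1), -1.10 (Dnmt3b) and 1.30 (Dppa3) for littermates. The first and second matings of different crosses share only a number: the litter differences correlated over genes at 0.45 between controls and cKO x WT, and at -0.76 between cKO x WT and Dppa2/4-/- embryos. The mating number as a replicate block changed the count to 12 for Dppa2/4-/- against Dppa2/4+/+ and to 745 for Dppa2/4+/- (WT sires), and changed no call of the 9 genes. At the floor lay 27 of 44 values of Tet2, 8 of Dnmt3b and 4 of Dnmt3l, the last all from the first control litter.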
